A study of Rattus norvegicus with 24 samples.

Results

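The rat CpG island array carried 1127 probes whose position in the rn4 genome build lay on a contig that had not been placed on a chromosome, out of 93024 non-control probes. They were chosen by the chromosome in the probe name alone, as probes on neither chromosomes 1 to 20 nor the X chromosome, and none of the 1127 was listed in the authors' table of processed values, which held 91897 probes. Of these probes, 614 lay on 19 contigs that carried the name of a chromosome followed by _random, that is, sequence assigned to a chromosome but to no place on it. The other 513 lay on chrUn and chrUn_random, which carried no chromosome.

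The study compared DNA methylation in mammary carcinomas of female Sprague-Dawley rats irradiated before or after puberty with that in carcinomas of unirradiated rats and in the normal gland. There were 24 arrays, 1 per sample: 3 normal mammary glands (NMG) of non-irradiated rats, 7 carcinomas (IR-3W) from animals exposed as 3-week-old prepubertal rats to 2 Gy of whole-body 137Cs gamma rays, 7 (IR-7W) from animals exposed in the same way at 7 weeks, after puberty, and 7 spontaneous carcinomas of unirradiated animals. All rats received, after 9 weeks of age, AIN-76A diet with 23.5% corn oil. The animal numbers in the labels showed that IR-3W tumors 6 and 7 came from 1 rat and IR-7W tumors 1 and 2 from another. The DNA was labelled as that of the gland or carcinoma, with no cell type sorted, so a ratio averages over the cells of the sample, and a change in the mix of cells cannot be told apart from a change within a cell.

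CpG islands are short stretches rich in CG dinucleotides, many at gene promoters, that stay largely unmethylated in normal tissue apart from sets such as those of the inactive X chromosome. Methyl-CpG binding domain protein captures methylated DNA fragments, and on each array the captured DNA (Cy5) competed with unenriched DNA of the same sample (Cy3). Contigs that an assembly leaves unplaced often hold repeated, duplicated or polymorphic sequence, which makes them hard to order, and the sequence joined under the name chrUn is a set of separate pieces, so that a distance along it need not be a distance in the rat. Values below are log2 ratios of Cy5 over Cy3 with the median of each array set to 0, and the Cy3 level is log2 of the Cy3 signal with the array's median over chromosomes 1 to 20 set to 0. A higher log2 ratio means more of the locus in the captured, methylated fraction.

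The unplaced probes were 45 to 60 bases long and lay in 222 runs, a run being probes at most 1000 bp apart on 1 contig. A run held a median of 4 probes and at most 23, 39 runs held a single probe, and 169 held at least 3. chrUn alone carried 493 probes in 114 runs, of which 185 probes in 34 runs fell between 25 and 26 Mb and 72 probes in 13 runs between 51 and 52 Mb of its coordinates. Among the contigs with a chromosome name, chr1_random carried 79 probes, chr2_random 75 and chr6_random 60. The probes have no gene names in the files, and no rn4 annotation was used here, so regions are named by contig and position.

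Most unplaced probes gave signal on every array. In Cy3, 993 of them (88.1%) were well above background on all 24 arrays, beside 86.9% of probes on chromosomes 1 to 20, and only 12 were above it on no array. In Cy5, 774 (68.7%) were above background on every array, beside 64.0%. The Cy3 median over the unplaced probes stayed within -0.022 and 0.031 on all arrays, close to the median of 0 set for chromosomes 1 to 20.

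Over all contigs, the unplaced probes had a higher median log2 ratio than those of chromosomes 1 to 20 in every sample, though single contigs did not all share this. The median log2 ratio over the unplaced probes was 0.17, 0.087 and 0.18 in the 3 normal glands, 0.12 to 0.26 with a median of 0.18 in IR-3W, 0.12 to 0.23 with a median of 0.18 in IR-7W and 0.13 to 0.25 with a median of 0.17 in spontaneous tumors. It lay above the median over chromosomes 1 to 20 on 24 of 24 arrays, by 0.18 ± 0.059 (SD, n = 3) in normal glands and 0.22 ± 0.044 (SD, n = 21) in tumors. The groups overlapped, and no test was made of a median over chosen probes. Of the contigs with the most probes, chr1_random and chr2_random had gland medians of -0.21 and -0.33, below the -0.080 and -0.083 of chromosomes 1 and 2, whereas chr6_random had 0.26 beside -0.011 on chromosome 6, chr4_random 0.090 beside -0.036 on chromosome 4 and chr20_random 0.37 beside 0.099 on chromosome 20.

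**Figure D1:**
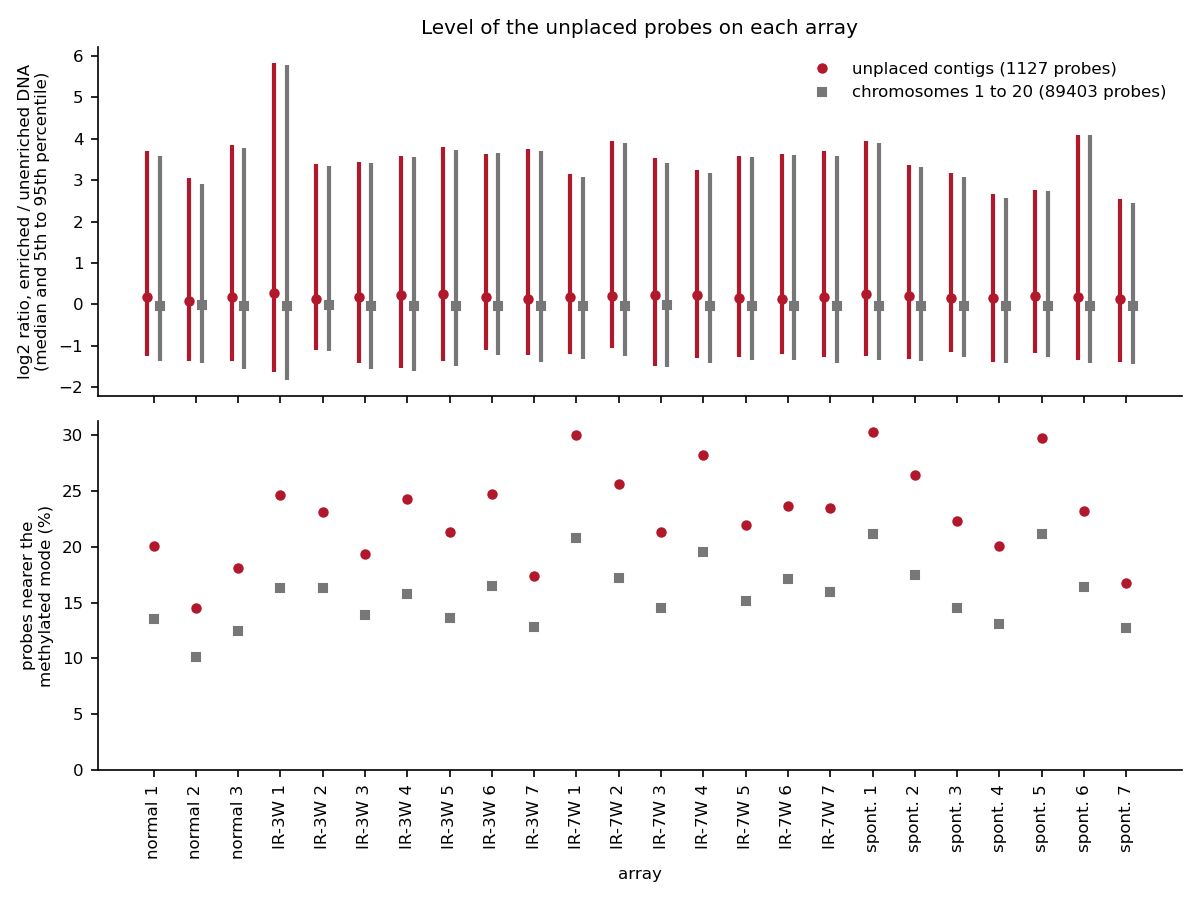
Top, log2 ratio of enriched over unenriched DNA on each of the 24 arrays: points give the median and bars the 5th to 95th percentile over the 1127 unplaced probes (red) and the 89403 probes of chromosomes 1 to 20 (grey). Bottom, percent of probes nearer the methylated than the unmethylated mode of the array; the unplaced probes lie above chromosomes 1 to 20 on all 24 arrays, and IR-3W tumor 1 has the longest bar, reaching 5.84.

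The same held for the share of probes assigned to the methylated one of 2 normal distributions fitted to the log2 ratios of an array. A probe was assigned to it where its density, weighted by its fitted share, was the larger and the ratio lay above the unmethylated mean. Among unplaced probes the share was 20.1%, 14.5% and 18.1% in the normal glands and 16.8% to 30.3% with a median of 23.5% in tumors. Among probes of chromosomes 1 to 20 it was 10.1% to 13.5% in glands and 12.7% to 21.2% in tumors, lower on each of the 24 arrays. Averaged over all arrays, 222 unplaced probes (19.7%) had a log2 ratio of 2 or more, against 15.2% of all probes, and 508 (45.1%) were below 0, against 51.1%.

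The runs differed more from each other than the probes within them. Over runs of at least 3 probes, the SD of the gland mean between runs was 1.34, and the median SD among the probes of a run was 0.51. The 3 most methylated runs in the normal gland were chrUn:25345268-25346578 (5 probes, 3.98, 3.20 and 4.25 in the 3 glands), chrUn_random:5353942-5354292 (4 probes, 4.00, 3.20 and 4.09) and chrUn:51903827-51904335 (6 probes, 3.89, 3.25 and 4.01). All 3 stayed high in tumors: the lowest of the 21 tumors was 2.54, 2.74 and 2.69, and none of their probes passed the test between tumors and glands.

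At the other end stood chrUn:25805761-25806230 (5 probes, -1.15, -1.16 and -1.70 in the glands), chr6_random:89825-90255 (6 probes, -1.32, -1.46 and -1.12) and chrUn:25611504-25612096 (4 probes, -0.98, -0.95 and -1.44). Of these, the last had no called probe and tumors between -1.56 and -0.65, overlapping the glands. At chrUn:25805761-25806230, 20 of 21 tumors lay above all 3 glands and 2 of 5 probes were called higher, with the highest tumor, spontaneous tumor 3, at 0.13. Where a ratio is this low, Cy5 is often near background: 79% of the Cy5 spots of that run and 51% of those of chrUn:25611504-25612096 were well above it.

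The runs of most probes differed in level. The largest, chr2_random:2551345-2554321 with 23 probes over 2977 bp, was low in glands (-0.52, -0.33 and -0.51) and tumors (-0.68 to -0.13), with 3 probes called higher and 3 lower. The next, chr3_random:1607565-1611177 with 19 probes, was high throughout, at 2.63, 2.00 and 2.95 in glands and 1.82 to 5.01 in tumors, with no probe called. The run at chrUn:51862185-51864806, with 18 probes, stood between them at -0.13, -0.46 and 0.11 in glands and rose above every gland in 17 of 21 tumors, with a tumor median of 0.51 and 3 probes called higher.

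Tumors differed from normal glands at about as many unplaced probes as elsewhere. With limma and Benjamini-Hochberg adjustment over all 93024 probes, 256 of 1127 unplaced probes (22.7%) passed an adjusted p of 0.05, beside 22.8% of all probes. They lay in 118 of the 222 runs. Higher ratios in tumors were found at 145 probes (12.9%, beside 10.5% of all probes) and lower ratios at 111 (9.85%, beside 12.3%). In 63 runs every called probe was higher, in 44 every called probe was lower and in 11 both occurred. The median difference, tumors minus glands, was 0.084 over the unplaced probes and 0.060 over all.

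The split between higher and lower changed with the centring, the scale and the background correction. Before centring, the array medians averaged 0.022 in glands and -0.17 in tumors, a shift of -0.19, and without centring 77 unplaced probes were higher and 184 lower (together 23.2%, beside 24% of all probes). When centred on chromosomes 1 to 20, 143 were higher and 109 lower (22.4%, beside 22.7%). A LogOdds scale, the log odds of methylated over unmethylated, was rebuilt here from the log2 ratios without the melting temperature of the probes, so that its values are not those of the study. On it 318 were higher and 4 lower (28.6%, beside 27.6%), 149 of these 322 among the 256, and with normexp background correction 93 were higher and 120 lower (18.9%, beside 21%). Directions below are therefore relative to the median probe of an array.

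The comparison with glands was also tied to the slides and scan days. All 3 glands were scanned on 1 of 6 days, together with 1 tumor, spontaneous tumor 3. With the slide as a block, the difference between tumors and glands was that of spontaneous tumor 3 and NMG 2, the only tumor and gland on 1 slide. With the scan day as a block it was that of this tumor and the 3 glands. Either block thus left 1 tumor, and beyond it the tumors and the other scan days cannot be told apart. The mean differences of runs for this 1 tumor lay on either side of those over all tumors. With the slide as a block the mean difference was 1.24 at chr6_random:1587891-1589194 (1.38 without the block), 1.60 at chrUn:25301479-25303582 (1.5) and -0.69 at chrUn:25104082-25104824 (-0.64). With the scan day as a block the same differences were 0.77, 1.39 and -0.55, and that at chr11_random:1224470-1225259 was 0.47 (0.74 without a block). Spontaneous tumor 3 shared the day of the glands but was itself among the tumors tested. In it 126 of the 145 higher probes lay above all 3 glands (86.9%, beside 85.6% of all higher probes on the array). The other 20 tumors had 103 to 144 with a median of 137. Of the 111 lower probes 100 lay below all glands in spontaneous tumor 3 (90.1%, beside 92.7% of all lower probes on the array). In the other tumors 97 to 111 did, with a median of 108. These counts describe probes called on the same arrays and are no test. The count of called unplaced probes fell to 108 without NMG 2 (9.58%, beside 10.4% of all probes), to 107 without NMG 3 (9.49%, beside 10.5%) and, with loess within arrays, to 59 (5.24%, beside 5.46% of all probes).

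The calls are also given by level. The level is the mean over the 24 arrays, of which 21 are tumors, so that a difference between tumors and glands itself moves a probe between ranges, and the shares are only to be read as unplaced beside all probes of a range. Of the 122 unplaced probes with a mean of 1 to 2 over the 24 arrays, 35 were higher in tumors (28.7%) and none lower, beside 26.1% and 0.333% of all probes in that range. Of the 222 with a mean of 2 or more, 23 were higher (10.4%, beside 6.52% of all probes) and none lower. Of the 508 with a mean below 0, 32 were higher (6.30%) and 87 lower (17.1%), beside 6.11% and 18% of all probes. Of the 275 with a mean of 0 to 1, 55 were higher (20%) and 24 lower (8.73%), beside 16.6% and 11.9%.

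**Figure D2:**
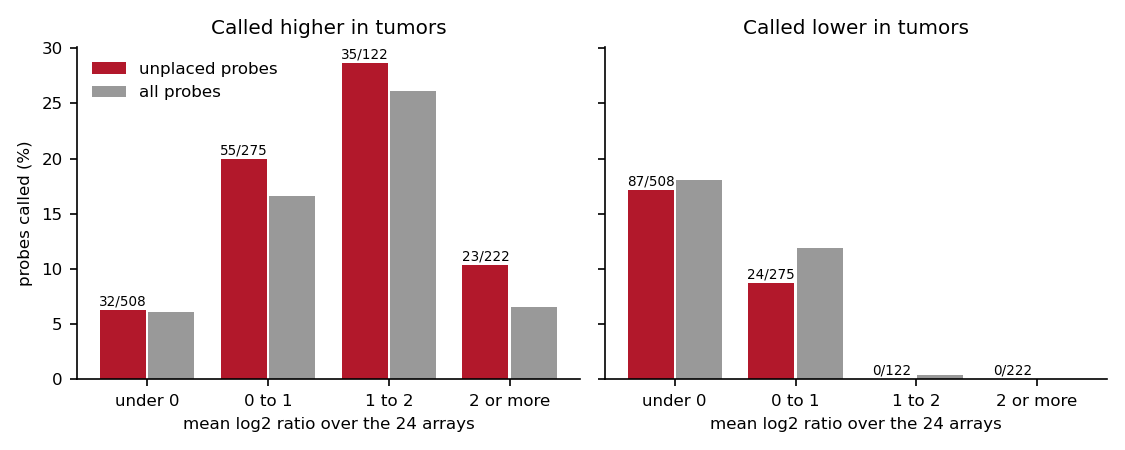
Percent of probes called higher (left) or lower (right) in the 21 tumors than in the 3 normal glands, by the mean log2 ratio over the 24 arrays, for unplaced probes (red, counts above the bars) and all probes (grey). The range of a probe depends in part on the tumors themselves, so bars are to be compared within a range: between 1 and 2, for example, 28.7% of unplaced and 26.1% of all probes are called higher.

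All 21 tumors lay above all 3 glands at 34 unplaced probes (3.02%, beside 2.91% of all probes) and below them at 63 (5.6%, beside 6.95%). Averaged by run, all tumors lay above all glands in 8 of 222 runs (beside 2.97% of all runs on the array) and below them in 9 (beside 6.08%). Of the 8 runs above, chosen here after their values were seen, 3 lay close together on chrUn. These were chrUn:51855770-51856132, chrUn:51868165-51869744 and chrUn:51875483-51875813, with gland means of -0.90, -0.64 and -1.03 and tumor means of -0.13, 0.32 and -0.43, and 2 of 3, 6 of 8 and 2 of 3 of their probes were called higher.

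Gains are given for 5 runs, each led by its probe of largest called difference. Runs were taken in the order of these leading probes, so further probes of the first runs can have gained more than the leading probe of a later one. The largest gain was A_45_P27546375 at chrUn:9324098-9324142, which was below the array median in the normal gland, at -1.0, -1.25 and -0.65. In tumors it ranged from -0.43 to 1.19 with a median of 0.52 in IR-3W, from 1.07 to 2.55 with a median of 1.75 in IR-7W and from 0.80 to 1.94 with a median of 1.60 in spontaneous tumors. All 21 tumors lay above all 3 glands, and the IR-3W median was the nearest to them. The difference was 2.15 ± 0.42 (SE; limma, adjusted p = 0.000755). In 2 of 13 other settings this call was lost, and the lowest difference over the 13 was 0.87. It held with any 1 array left out (limma, highest adjusted p 0.0143).

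This probe was 1 of 9 in the run chrUn:9322549-9324292, and the gain was not even along it. Its last 3 probes, A_45_P27546375, A_45_P27546376 and A_45_P27546377, had gland means of -0.97, 0.08 and -0.65 and differences of 2.15, 1.88 and 2.04. The first 5 probes were already methylated in glands, from 1.83 at A_45_P27546366 to 1.98 at A_45_P27546370, and 6 of the 9 were called higher. The run mean was 1.00, 0.47 and 1.01 in glands and 0.83 to 2.89 in tumors, with 20 of 21 tumors above all glands.

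The leading probe of the second run, A_45_P27598802 at chrUn:25303130-25303176, had 0.76, -0.20 and 1.11 in glands and 0.77 to 5.32 with a median of 2.69 in tumors. The lowest tumors overlapped the glands, and the difference was 2.13 ± 0.57 (SE; limma, adjusted p = 0.00889), which without NMG 2 was 1.75 with an adjusted p of 0.105. Other probes of its run were also called. At chrUn:25301479-25303582, 9 of 12 probes were called higher, the run mean was 0.85, 0.60 and 0.96 in glands, 0.98 to 4.22 in IR-3W, 1.97 to 3.08 in IR-7W and 1.03 to 2.92 in spontaneous tumors, and all 21 tumors lay above all glands. Without NMG 2, 1 of its 12 probes passed, under normexp 1 and under loess 2.

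Next to it, across a gap of more than 1000 bp, the run chrUn:25299562-25300455 went the other way. Its 5 probes averaged 0.44 in glands and -0.028 in tumors, all 21 tumors lay below all glands, and 2 probes were called lower.

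Of the 222 runs, chr6_random:1587891-1589194 held the most higher calls, with 13 of 14 probes over 1304 bp called higher and none lower. Its probes averaged 1.01, 0.14 and 0.68 in the 3 glands. In tumors they averaged 0.94 to 2.42 in IR-3W, 1.64 to 2.40 in IR-7W and 1.22 to 2.65 in spontaneous tumors, and 20 of 21 tumors lay above all glands, spontaneous tumor 3 at 1.38 among them. The probe that led it, A_45_P12976272, was dim, with Cy3 well above background on 16 of 24 arrays and Cy5 in 2 of 3 glands, and read 1.20, -1.45 and 0.74 in glands and 0.72 to 2.76 in tumors (difference 1.84 ± 0.42 SE, limma adjusted p = 0.00257). Without NMG 2 its difference was 1.03 and did not pass (limma adjusted p = 0.114).

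Brighter probes of that run also rose. A_45_P27804645 and A_45_P12976271, which overlap and had mean Cy3 levels of 1.53 and 1.13, both differed by 1.53. A_45_P12976274 had the smallest adjusted p of the run, 0.000400 (limma), with a difference of 1.69 ± 0.30 (SE). Without NMG 2, 6 of the 14 probes stayed called, under normexp 4 and under loess 3.

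In the other 2 of the 5 runs fewer probes were called. A_45_P27598563 at chrUn:25257295-25257343 read 0.52, 0.07 and 0.96 in glands and 0.24 to 3.87 with a median of 2.36 in tumors (difference 1.75 ± 0.54 SE, limma adjusted p = 0.0209), with Cy3 above background on 18 arrays. Its run, chrUn:25255116-25257408, had 4 of 14 probes higher and 2 lower, and its mean overlapped between tumors (0.57 to 2.70) and glands (1.06, 0.75 and 1.47). Cy5 of the leading probe was above background in 2 of 3 glands, and the probe did not pass without any 1 of the 3 glands (limma adjusted p of 0.0547 to 0.143). The run's mean difference of 0.30 became -0.11 under normexp, with 0 probes higher and 4 lower, and -0.025 under loess, with 0 higher and 1 lower; without NMG 2 none of its probes passed. A_45_P12998128 at chr11_random:1224470-1224519 read -0.12, -0.39 and 0.11 in glands and 0.31 to 2.64 in tumors, all 21 above all glands (difference 1.72 ± 0.39 SE, limma adjusted p = 0.00249). In its run, chr11_random:1224470-1225259, 4 of 9 probes were called higher and none lower. Without NMG 2, 1 of the 9 passed, under normexp 1 and under loess 0.

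**Figure D3:**
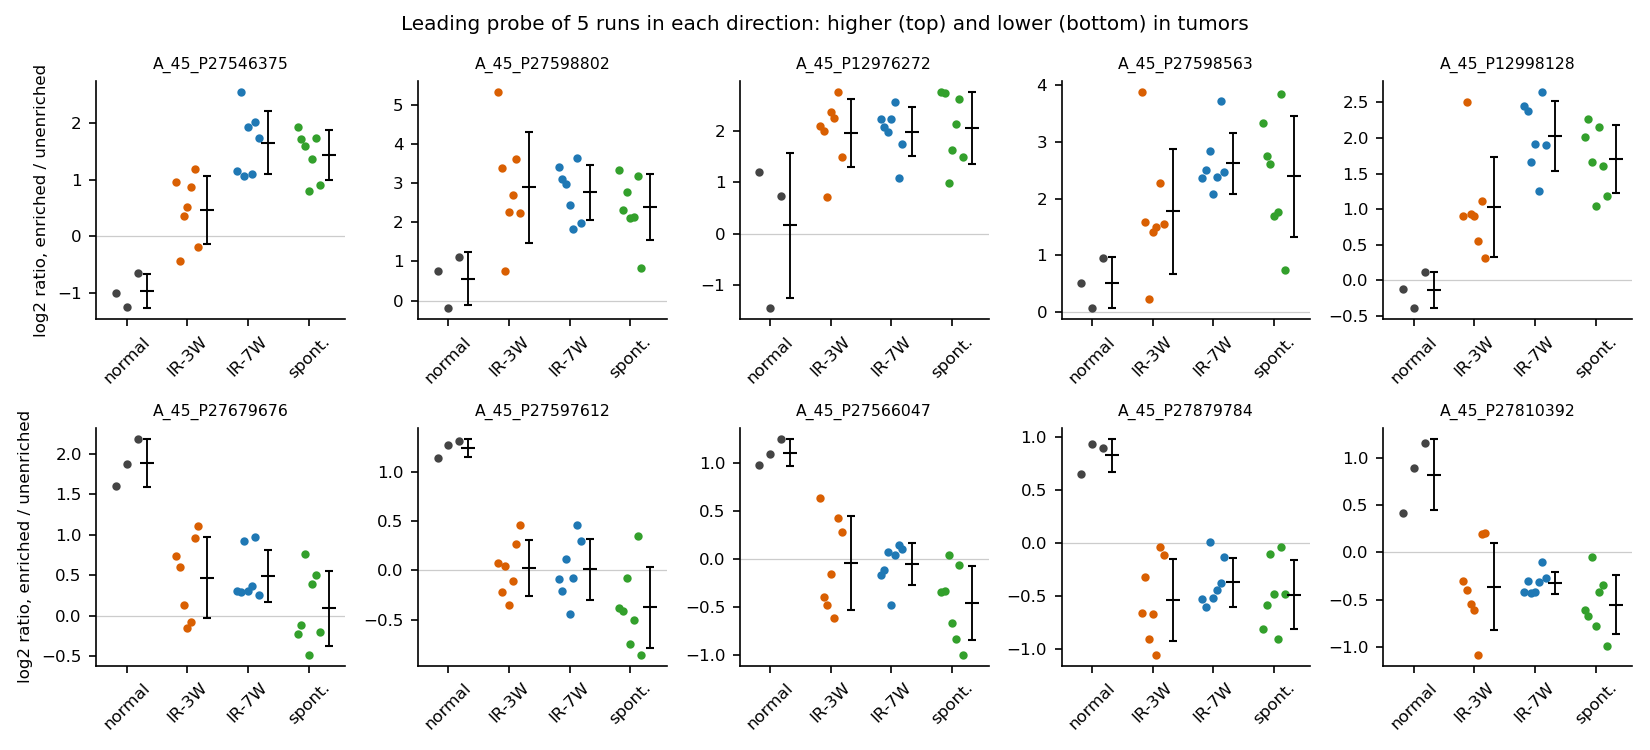
Log2 ratio of enriched over unenriched DNA at the leading probe of each of the 5 runs named for gains (top) and of the 5 named for losses (bottom) in tumors; each point is 1 array, and bars give the mean ± SD of a group (3 normal glands, 7 tumors in each other group). At each of the 5 lower probes all 21 tumors lie below all 3 glands; of the 5 higher probes this separation holds at A_45_P27546375 and A_45_P12998128.

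The 5 largest losses by probe, each in a run of its own, separated the groups completely. A_45_P27679676 at chrUn:51843908-51843952 was methylated in the normal gland, at 1.60, 1.88 and 2.19, and lay between -0.48 and 1.11 with a median of 0.31 in tumors (difference -1.54 ± 0.27 SE, limma adjusted p = 0.000350). A_45_P27597612 at chrUn:25104391-25104435 fell from 1.14, 1.28 and 1.32 to between -0.86 and 0.47 (difference -1.36 ± 0.22 SE, limma adjusted p = 0.000244). Its gland SD, 0.092 (n = 3), was the smallest of the 10 probes named here. A_45_P27566047 at chrUn:15124374-15124418 fell from 0.98, 1.10 and 1.26 to between -1.0 and 0.64 (difference -1.30 ± 0.24 SE, limma adjusted p = 0.000590).

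The 2 remaining losses were smaller. A_45_P27879784 at chrUn_random:4606704-4606748 read 0.65, 0.93 and 0.89 in glands and -1.05 to 0.01 in tumors (difference -1.29 ± 0.19 SE, limma adjusted p = 0.000154). A_45_P27810392 at chr8_random:269037-269081 read 0.41, 0.89 and 1.16 in glands and -1.08 to 0.21 in tumors (difference -1.23 ± 0.21 SE, limma adjusted p = 0.000281). At all 5 losses all 21 tumors lay below all 3 glands, and Cy3 and Cy5 were well above background on all arrays.

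Most probes in the runs of these losses did not pass the test. In the runs of the 5 losses, 1 of 3, 2 of 4, 2 of 5, 1 of 3 and 1 of 6 probes were called lower. At chr8_random:268686-269504, 2 other probes were called higher, and the run mean lay above all glands in 15 of 21 tumors. Its mean difference of 0.21 became -0.10 under normexp, 0.068 under loess and 0.015 without centring, and no probe of the run was called higher under normexp or loess. At chrUn_random:4606062-4606861, 1 of the 3 probes was called higher beside the 1 called lower. At chrUn:25104082-25104824 the loss reached the run mean, which was 0.24, 0.50 and 0.33 in glands and -0.62 to 0.01 in tumors, all 21 below all glands. Under loess no probe was called in the runs of the first 3 losses: the difference was -0.43 at A_45_P27679676, -0.47 at A_45_P27597612 and -0.26 at A_45_P27566047 (limma adjusted p of 0.170, 0.0996 and 0.453). A_45_P27879784 and A_45_P27810392 still passed under loess, and all 5 passed under normexp and with any 1 array left out. None passed with the slide or the scan day as a block, and on the rebuilt LogOdds scale A_45_P27566047 and A_45_P27810392 did not pass.

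The tumors of the 2 ages at irradiation differed at few unplaced probes. The paper states that these groups also differed in estrogen receptor status, and that it could not separate this from age. Between IR-7W and IR-3W none passed an adjusted p of 0.05 (limma; smallest 0.109), as none did over all 93024 probes; 75 unplaced probes had an unadjusted p under 0.05 (6.65%, beside 6.49%). At an unadjusted p under 0.005, 18 unplaced probes in 10 runs differed (1.60%, beside 1.21% of all probes), 15 of them higher in IR-7W (beside 0.967%). The count of 18 fell to 4 with normexp, 9 with the slide as a block, 10 with loess, 11 without IR-3W 6 and 10 without IR-7W 2 or IR-7W 4. It rose to 27 on the rebuilt LogOdds scale, 25 without IR-3W 1 and 22 without IR-7W 7. The share of all probes was not taken in these settings. The 7 IR-7W tumors all lay above the 7 IR-3W tumors at 4 unplaced probes (0.355%, beside 0.129% of all probes) and all below them at none (beside 0.0366%).

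The smallest p belonged to A_45_P27601868 at chrUn:25777573-25777625. It read -1.19, -1.40 and -1.68 in normal glands, -0.74 to -0.19 with a median of -0.57 in IR-3W, 0.04 to 1.00 with a median of 0.45 in IR-7W and -0.37 to 1.81 with a median of 0.15 in spontaneous tumors. The IR-3W and IR-7W tumors did not overlap, and the spontaneous tumors overlapped both. The difference, IR-7W minus IR-3W, was 0.95 ± 0.16 (SE; limma, unadjusted p = 2.48e-05, adjusted p = 0.109). On the rebuilt LogOdds scale its adjusted p was 0.0449, and 2 unplaced probes passed (0.177%, beside 0.218% of all probes). Under normexp the difference was 0.24 and under loess 0.65 (limma adjusted p of 1.00 and 0.673).

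Its run mean is given for comparison. Averaged over the 4 probes of chrUn:25777217-25777625, the glands read -0.63, -1.06 and -0.99, IR-3W -0.46 to 0.41 with a mean of -0.014 ± 0.31, IR-7W 0.18 to 1.46 with a mean of 0.80 ± 0.47 and spontaneous tumors 0.18 to 2.31 with a mean of 1.02 ± 0.88 (SD, n = 7 each). All 21 tumors lay above all glands, 3 of the 4 probes were called higher in tumors, and IR-3W was the group nearest the glands. The run was named for a probe lower in IR-3W than in IR-7W, so this order follows in part from the choice. The IR-3W and IR-7W run means overlapped.

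The next probe by p, A_45_P27800637 at chr6_random:482238-482282, also separated the 2 groups. It read -0.01, -0.07 and 0.09 in glands, 0.21 to 0.72 with a median of 0.31 in IR-3W, 0.90 to 1.83 with a median of 1.09 in IR-7W and 0.41 to 1.68 in spontaneous tumors, with a difference of 0.83 ± 0.15 (SE; limma, unadjusted p = 5.91e-05, adjusted p = 0.109). Under normexp this difference was 0.30. A_45_P12972035, which overlaps it, differed by 0.79. Over the 5 probes of its run, chr6_random:482220-482974, the groups overlapped, at 0.39 to 1.25 with a mean of 0.88 in IR-3W and 0.81 to 1.31 with a mean of 1.07 in IR-7W. Among the leading gains over glands, A_45_P27546375 was higher in IR-7W than in IR-3W by 1.19 ± 0.29 (SE; limma adjusted p = 0.247).

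Lower values in IR-7W were weaker, and under normexp the difference at A_45_P12957963 changed sign (0.017). A_45_P12957963 at chr4_random:991641-991695 read -2.07 to -0.61 in IR-3W and -3.24 to -1.46 in IR-7W (difference -0.93 ± 0.25 SE, limma adjusted p = 0.306), but its Cy5 was well above background in 4 of 21 tumors, and A_45_P27787160, which overlaps it, differed by 0.86 in the other direction. A_45_P27679555 at chrUn:51819685-51819729 read 0.28 to 1.36 in IR-3W and -0.35 to 0.41 in IR-7W (difference -0.67 ± 0.18 SE, limma adjusted p = 0.309).

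Against spontaneous tumors no unplaced probe passed the adjusted threshold (limma; beside 0.0086% of all probes for IR-3W and 0 for IR-7W). For IR-3W the smallest adjusted p was 0.352 and 112 unplaced probes had an unadjusted p under 0.05 (9.94%, beside 10.2% of all probes). For IR-7W the smallest adjusted p was 0.912 and 37 did (3.28%, beside 3.93%). These comparisons share the spontaneous tumors and, with the age comparison, the irradiated tumors.

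The runs that varied most among tumors were highly methylated in the gland, and the SD among tumors rose with the level over the whole array. Its median was 0.36 over all probes with a mean below 0 and 0.72 over those of 2 or more. For unplaced probes it was 0.35 and 0.70. In each of the 3 runs the highest tumor was in IR-3W, and at chrUn:24887967-24888314 it was IR-3W tumor 1, the array of widest spread. At chr5_random:48857-49222 (4 probes) the glands read 4.58, 2.61 and 3.51 and the tumors 0.59 to 5.95, with an SD of 1.32, but its Cy3 level was -3.32 and 24% of its Cy3 spots were well above background. At chrUn:74986177-74986679 (6 probes, 99% of Cy3 spots above background) the glands read 3.14, 2.30 and 3.30 and the tumors 0.80 to 4.82. At chrUn:24887967-24888314 (5 probes) the glands read 3.09, 2.11 and 2.98 and the tumors 1.36 to 5.53. The lower end of these ranges lay below all glands, in 11 of 21 tumors at chrUn:74986177-74986679 and in 7 at chrUn:24887967-24888314, and no probe of the 3 runs passed the test against glands.

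The Cy3 channel carried DNA that had not been enriched. The brightest unplaced probes were A_45_P27514464 at chrUn:480201-480245, with a mean Cy3 level of 5.10, A_45_P27514357 at chrUn:448695-448739 with 4.66 and A_45_P13002661 at chr13_random:468076-468120 with 3.94, all relative to the autosomal median on the log2 scale. Their Cy3 levels varied little, with an SD over the 24 arrays of 0.28, 0.32 and 0.29. All 3 were highly methylated in glands, at 2.62, 1.63 and 2.51 for the first, 2.83, 2.22 and 2.53 for the second and 2.56, 1.70 and 2.16 for the last. The last was called higher in tumors (difference 0.84 ± 0.27 SE, limma adjusted p = 0.0276), and the first 2 were not. That call was lost without NMG 2 or NMG 3 (limma adjusted p of 0.239 and 0.105) and in 6 of 13 other settings, among them no centring, normexp and loess.

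Between tumors and glands the Cy3 level of no unplaced probe passed the adjusted threshold (limma; 56 at an unadjusted p under 0.05, 4.97%, beside 3.82% of all probes). A few probes instead fell into separate levels across the arrays. Searched after the values were seen, a gap of at least 1 on the log2 scale with at least 3 arrays on each side was found at 4 of 1059 unplaced probes with a mean Cy3 level above -2 (0.378%), beside 0.122% of all probes, 0.120% of those on chromosomes 1 to 20 and 0.0850% of those on the X chromosome.

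Of these 4 probes, 3 lay on chr20_random. A_45_P13030734 and A_45_P27856244, at chr20_random:90012-90057, share 44 bases and are 1 locus. In the 3 glands A_45_P13030734 had Cy3 levels of 1.31, 1.47 and 1.28. In 8 tumors, IR-3W 3, 4, 6 and 7, IR-7W 5 and spontaneous 4, 6 and 7, its level was -0.37 to -0.0023, and in the other 13 tumors and the glands it was 1.11 to 1.96. No array lay between these ranges.

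The third, A_45_P13030553 at chr20_random:39798-39842, was low in other tumors. Its Cy3 level was -2.98 and -2.75 in IR-7W tumors 3 and 4 and -3.04, -3.72 and -3.22 in spontaneous tumors 2, 3 and 5, against -1.35 to 0.16 on the other 19 arrays. The fourth, A_45_P27617982 at chrUn:30869969-30870013, was low in all 3 glands (-3.27, -2.54 and -3.68) and in 13 tumors, and read -0.49 to -0.11 in IR-3W tumors 1 and 5, IR-7W tumors 1, 2, 4, 5 and 7 and spontaneous tumor 2. For all 4 probes the 2 tumors of each rat that gave 2 lay on the same side of the gap. Of the 4 probes 2 overlap, only 2 rats gave such pairs, and other pairs of tumors were not compared. What set these levels was not tested. The log2 ratios at these probes were not compared between the levels, which the data themselves defined.

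**Figure D4:**
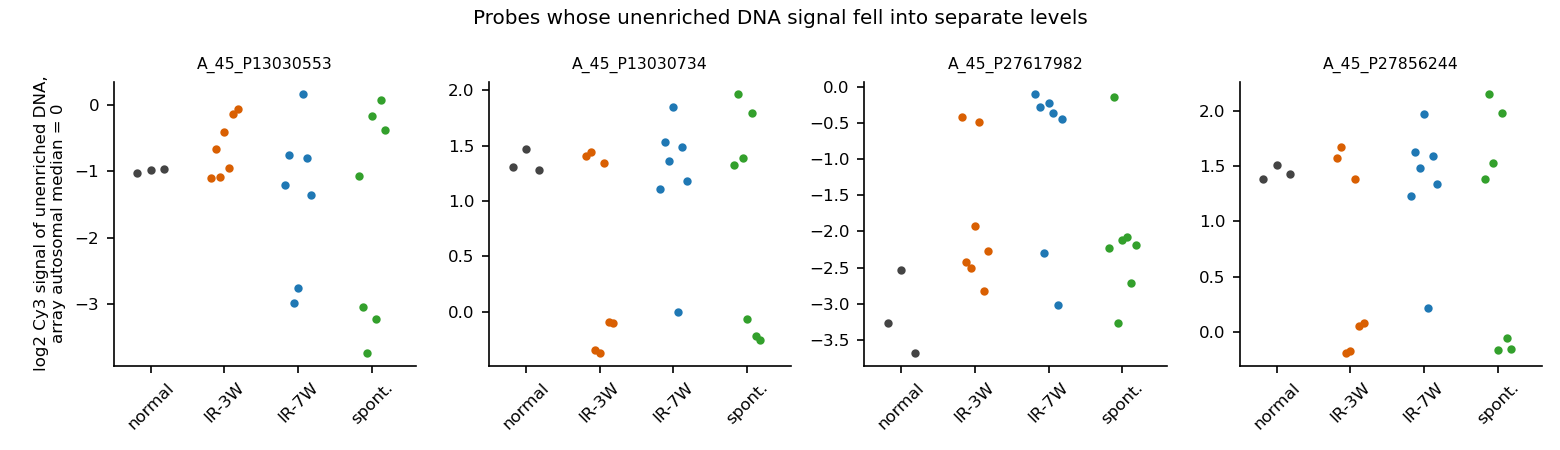
Cy3 level of unenriched DNA (log2, median over chromosomes 1 to 20 of the array set to 0) at the 4 unplaced probes with a gap between arrays; each point is 1 array, by group. At A_45_P13030734 and A_45_P27856244, which overlap, 8 tumors lie apart below the other 16 arrays, and at A_45_P13030553 5 tumors do.

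For contigs that name a chromosome, the Cy3 level could be set beside that of the chromosome. IR-7W tumor 6 had low Cy3 over chromosome 6, a median shift of -0.34 from each probe's mean over the 24 arrays. On chr6_random the same array shifted by -0.30, the lowest of the 24, and the other 23 lay between -0.089 and 0.12. Across the 24 arrays the shifts of chr6_random and chromosome 6 had a Pearson r of 0.85, a description over points that share an array and among which IR-7W tumor 6 stands far from the rest. The other contigs of at least 30 probes had r between -0.31 and 0.84 with their chromosomes. On chr14_random and chr9_random, with 11 probes each, the shift of IR-7W tumor 6 from the other arrays was -0.31 and -0.27, while chromosomes 14 and 9 were at 0.018 and 0.026. Measured in the same way, chr6_random was at -0.31.

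In the run chr6_random:1587891-1589194, the one with 13 of 14 probes higher in tumors, IR-7W tumor 6 also had the lowest Cy3 level, -0.42, against -0.19 to 0.37 on the other arrays. Its mean log2 ratio there was 1.64, above all 3 glands. On chr6_random as a whole, with 9 runs, 20 of 60 probes were called higher, 13 of them in this 1 run, and 6 lower. Of the 4238 probes placed on chromosome 6, 11.9% were higher and 14% lower. Probes of 1 run lie close together and are not independent.

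IR-7W tumor 3 offered the same comparison for the X chromosome, where its Cy3 shifted by -0.72 and its median log2 ratio was 0.21, beside 1.92 to 4.91 on the other arrays. Of the 169 unplaced runs of at least 3 probes, 19 (11.2%) had a Cy3 shift in this tumor closer to that of the X chromosome than to that of chromosomes 1 to 20, beside 11.9% of 12724 autosomal runs and 97.6% of 327 runs on the X. In the log2 ratio, where the X median shifted by -2.44, a fall of that size can be seen only where a run is high on the other arrays. Of the 31 unplaced runs with a log2 ratio of 2 or more there, 0 were closer to the X (which allows a share of up to 9.68%), beside 0 of 1759 autosomal runs and 265 of 305 X runs (86.9%). The largest fall among these 31 runs was -0.50. Over all 169 runs it was -0.85, at chr2_random:392009-392367 (3 probes), which was low on the other arrays, at -0.71.

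Of the 3 runs with the lowest Cy3 shift in this tumor among those of at least 3 probes, 1 was high in the log2 ratio on the other arrays. At chr2_random:3568258-3568533 (4 probes) the Cy3 shift was -1.13, but the mean Cy3 level there was -3.27 and 22% of its spots were well above background, and the log2 ratio was 0.54 against 0.75, -0.94 and 0.08 in the glands. At chrUn:57617795-57618139 (3 probes) the Cy3 shift was -0.96 and the log2 ratio stayed high, at 3.66 in this tumor against 3.86, 2.99 and 4.05 in the glands, and Cy3 there ranged from -1.57 to -0.19 over all arrays. At chrUn:64557169-64557654 the shift was -0.84 and the ratio -0.75, against -0.66, -0.97 and -1.02 in the glands.

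**Figure D5:**
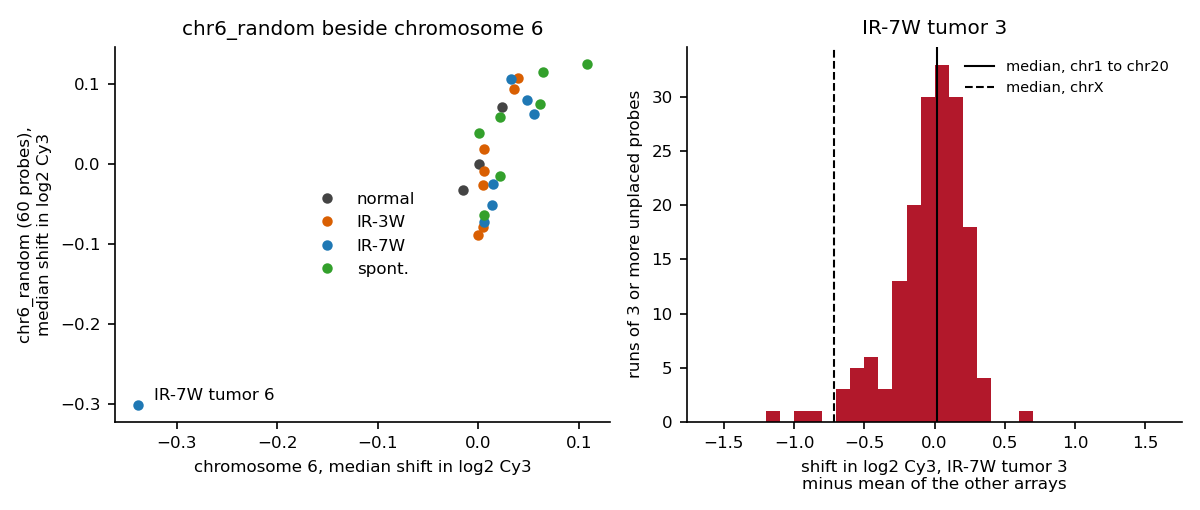
Left, median shift in Cy3 (log2, from each probe's mean over the 24 arrays) of the 60 chr6_random probes against that of chromosome 6, 1 point per array; IR-7W tumor 6 lies at -0.30 and -0.34, apart from the other 23. Right, Cy3 shift of IR-7W tumor 3 from the mean of the other arrays for the 169 unplaced runs of at least 3 probes, with the medians of chromosomes 1 to 20 (0.017) and of the X chromosome (-0.72) as lines; 19 runs lie closer to the X.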

How the data were processed

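The deposited scanner files, made by the authors with Agilent Feature Extraction 10.7.3.1, held Cy5 and Cy3 intensity per spot, background-subtracted and dye-normalised per the file headers, on rn4 coordinates. The deposited table of log2 values was read only for its probe list. Outlier spots (0 to 35 per array) were left out; of the unplaced probes 3 values were missing and no spot was saturated. The log2 ratio was centred on the array median and tested with limma 3.58.1 (R 4.3.3), on all probes of only the arrays compared, with Benjamini-Hochberg adjustment. The number of arrays limits the precision, and p-values measure the spread between samples of the deposited groups. The test was checked on simulated data. Regions were named by rule: 5 runs per direction of largest called difference from glands, 2 per direction of smallest p for age, 3 of most probes, 3 highest and 3 lowest in glands, 3 most variable, 3 brightest probes in Cy3, up to 3 low in Cy3 in IR-7W tumor 3, and any with a called Cy3 difference (none). The members, rules and tests were chosen with earlier results of these data known. Alternatives covered a LogOdds scale rebuilt here, centring, background, loess, dim probes, slide, scan day, replicate, rat, the fit and each array.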

Additional observations from a re-analysis of the deposited data

Results flagged for a closer look

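In 63 values tested within each group of 7 tumors (189 combinations), 14 had 1 tumor far from the other 6 by Dixon's ratio. Chance flags about 1 in 20 groups, but some of these values were named for their spread or for a gap, which favours a flag. The gap was mostly that of IR-3W tumor 1. On that array the 95th percentile of the unplaced probes reached 5.84, while the 6 further IR-3W arrays gave 3.39 to 3.80, and it stood above them at 8 runs: chrUn:25255116-25257408 (2.70), chr3_random:1607565-1611177 (5.01), chrUn:25345268-25346578 (6.33), chrUn_random:5353942-5354292 (6.13), chrUn:51903827-51904335 (6.38), chrUn:24887967-24888314 (5.53), chr13_random:468076-468120 (4.05) and chrUn:57617795-57618139 (6.09). The MAD of all its log2 ratios was 1.37, against 0.87 to 1.27 on the other arrays. With each array divided by its MAD, an alternative chosen after seeing the data, only chrUn:24887967-24888314 still stood apart, at 4.05 against 1.66 to 2.39. That run had been named for its spread among the tumors. Without this array 277 unplaced probes differed between tumors and glands (24.6%, beside 24.5% of all probes).

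IR-3W tumor 2 stood above the other IR-3W tumors at A_45_P12998128 (2.51, against 0.31 to 1.12) and at chr6_random:89825-90255 (-0.45, against -1.33 to -0.96). IR-3W tumor 4 stood above them at A_45_P27800637 (0.72, against 0.21 to 0.37). IR-7W tumor 1 stood below its group at chrUn_random:4606062-4606861 (-0.29, against -0.099 to 0.040). IR-7W tumor 5 stood below its group in the mean Cy3 level of chr20_random:90012-90057 (0.10, against 1.17 to 1.91). This locus was named for its gap in Cy3, with IR-7W tumor 5 below it, so the flag rests on that choice.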

How the results depend on the processing

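Between tumors and glands 256 unplaced probes differed (145 higher, 111 lower). With loess within arrays 59 passed (30 higher, 29 lower), 53 of them among the 256 (5.24%, beside 5.46% of all probes), with the scan day as a block 5 (2 and 3), 3 of them among the 256 (0.444%, beside 0.740%), and with the slide as a block 0 (0 and 0). Both blocks rest on spontaneous tumor 3, the only tumor that shared a day or a slide with a gland. The rebuilt LogOdds gave 318 higher and 4 lower, no centring 77 and 184, and normexp 93 higher. With each array left out in turn the count ran from 107 to 277 (higher 50 to 156, lower 52 to 121), lowest without NMG 3 and NMG 2. The replicate numbers did not pair the samples (correlations from -0.22 to 0.53 between same-numbered tumors), and with the replicate number as a block 239 passed (21.2%, beside 20.5% of all probes).

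For age, the rebuilt LogOdds gave 2 probes past the adjusted threshold and leaving out an array 0 to 1 (1 without IR-7W 7). The 18 at an unadjusted p under 0.005 became 27 on the rebuilt LogOdds, 4 with normexp, 10 with loess and 9 with the slide as a block, and ran from 10 to 25 with an array left out. The difference at A_45_P12957963 changed sign with normexp (0.017). For IR-3W against spontaneous tumors 2 passed with the scan day as a block (beside 0.0785% of all probes). In Cy3, 3 passed with the slide (beside 0.264%) and 1 with the scan day as a block (beside 0.0172%). Without centring, the mean of the median over unplaced probes fell to 0.039 for IR-3W, to 0.0057 for IR-7W and to -0.0029 for spontaneous tumors. The cause of these changes was not tested. The rat as a random block was not run for the comparisons with spontaneous tumors, since its correlation could not be estimated. Joining probes at 500 bp gave 246 runs. Probes not well above background limit the lowest ratios.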
